A study of Mus musculus with 30 samples.

Results

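Aortas of B cell-deficient mice that had a sham operation were compared 42 days and 7 days after surgery. The comparison rests on 6 of the 30 microarrays of the study, 3 labelled uMT sham day 42 and 3 labelled uMT sham day 7, and on all non-control probes of those arrays. All 6 samples came from uMT mice of the C57BL/6 strain, which carry a disrupted immunoglobulin mu heavy chain gene and make no mature B cells, so the defect was present in every cell from birth and not induced in the adult. The sham operation placed physiological saline around the abdominal aorta in place of the 0.5 M calcium chloride that was used elsewhere in the study to produce an aneurysm. No calcium chloride was therefore given to any of the 6 samples. The study's title names its question, that of B cells, antibodies and the kinase Syk in aneurysm, and the sham arms follow the repair of the surgical wound. The remaining 24 arrays covered unoperated uMT mice (pre), uMT mice given calcium chloride, and the same 5 conditions in wild-type (WT) mice, with 3 arrays each. The tissue tag names abdominal aortic aneurysm for every sample, the sham samples included. Age, sex and the number of animals behind each sample were not given in the sources used here, and nothing states that replicates were separate animals, so the p-values measure the spread between these samples, which may be technical.

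Surgery around a vessel starts a wound response in the adventitia. In the early phase, monocytes and neutrophils enter, resident fibroblasts divide and turn into matrix-producing myofibroblasts, and they lay down a provisional matrix of fibronectin, tenascin and periostin followed by fibrillar collagen. As the wound resolves, proliferation and secretion decline, the leukocytes leave and the collagen is crosslinked. The medial smooth muscle cells below keep the contractile apparatus of the vessel, and perivascular fat lies outside the adventitia and is easily taken along in a dissection. In bulk tissue, a lower signal from fewer cells of a type cannot be told apart from less RNA per cell.

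Each level is the log2 of a probe's signal over the 75th percentile of its array, so that 0 is a fairly bright probe and negative values are dimmer ones, and differences are on the same log2 scale with their standard errors. The brightness of the arrays moved with the groups. The 75th percentile was 418, 367 and 397 signal units at day 7 and 231, 121 and 95.7 at day 42 for replicates 1, 2 and 3, and the share of spots well above background was 58.2% to 61% against 46.8% to 54.3%. All 3 day 42 arrays were dimmer than all 3 day 7 arrays, with replicate 1 the closest. The 100 brightest probes held 15.2% to 16.3% of the signal at day 7 and 20.1% to 29.7% at day 42, while the control RNAs added to each sample had a median log2 signal of 12.5 to 13.1 and 12.9 to 14. The 6 arrays lay on 1 slide and were scanned on the same day. Correlations over 21793 genes were 0.989 to 0.990 within day 7, 0.955 to 0.970 within day 42, 0.963 to 0.967 between day 42 replicate 1 and day 7, and 0.908 to 0.925 for the other 2 day 42 arrays; genes are not independent replicates. The part of brightness in the results was examined mainly through a fit on 29 arrays, chosen after the data were seen, in which the log2 of the array's 75th percentile enters as a further term; its counts are given below as those with the brightness term. It leaves out WT sham day 42 replicate 2, the dimmest array of the study (75th percentile 36.1).

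Of 21793 genes tested, 3449 fell from day 7 to day 42 (15.8%) and 2365 rose (10.9%) at an adjusted p under 0.05, and the median difference was -0.07. The 2 groups' arrays did not overlap for 51.2% of the genes, which is the background for every such remark below. With the brightness term, 1882 fell (8.64%) and 576 rose (2.64%); without the term the same 29 arrays gave 5126 falls and 3574 rises. Of the genes that fell, 1312 fell in that fit too, against 420 of those that rose. The same term fitted on the 15 uMT arrays alone left 94 falls (0.431%) and 21 rises (0.0964%), and leaving out the 2 dimmer day 42 arrays left 27 and 2. The split between rises and falls also depended on the scale: with the 75th percentile taken over probes that each of the 15 arrays detected there were 3398 rises and 2233 falls, with the median of all genes 0.164 higher. The falls were mostly of annotated genes, 82.8% having a symbol in the reference tables, while only 47.5% of the rises had one.

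Proliferation genes were lower at day 42. Of 33 cell cycle and mitosis genes tested, 22 fell and 0 rose, with a median difference of -1.74. Top2a, the topoisomerase that untangles chromosomes before mitosis, stood at -1.65, -0.98 and -1.51 at day 7 and at -3.10, -5.03 and -4.89 at day 42. Every day 42 array lay below every day 7 array, and the unoperated uMT arrays read -5.40, -4.75 and -3.97, at the day 42 end of the range. Top2a fell by 2.96 ± 0.53 (adjusted p = 0.00515); its probe was above background on only 1 of the 3 day 42 arrays. Cdk1, the kinase that drives entry into mitosis, was at -1.24, -0.54 and -1.28 and then at -2.96, -4.23 and -3.68. It fell by 2.60 ± 0.41 (adjusted p = 0.00352), with 1 of the 3 day 42 arrays above background. Levels of Mki67, which coats mitotic chromosomes, were 1.12, 1.90 and 1.26 at day 7, 0.16, -0.39 and -0.71 at day 42 and -2.13, -2.48 and -0.79 before surgery, so that both time points after surgery stood above the unoperated arrays; the gene fell by 1.74 ± 0.44 (adjusted p = 0.0148). The mitotic kinesin Kif20a and the spindle protein Nusap1 changed by -2.89 and -2.24 (adjusted p = 0.00593 and 0.00597), each also above background on 1 of the 3 day 42 arrays. The kinesins Kif23 and Kif11 had no day 42 array above background, so their falls are at least 2.2-fold and 1.63-fold (adjusted p = 0.00376 and 0.00435); here and below such a bound sets the day 7 mean against the dimmest signal that counted as above background on each day 42 array. The replication licensing genes Mcm2, Mcm3 and Mcm6 read -0.68, -0.43 and -0.33 and did not pass. With the brightness term the list's median was -1.09 and 5 of its members fell, Cdk1 and Kif23 among them, while Top2a read -1.88, adjusted p = 0.14. With the same term on the 15 uMT arrays alone, 0 of the list fell and the median was -1.06. In the fit without the term, the number of falls was 10 without day 7 replicate 2, 11 without day 42 replicate 2 and 14 without day 42 replicate 3. Single arrays, when left out, ended the call of Mki67 (3 of 6 arrays, highest adjusted p = 0.0642 without day 7 replicate 2).

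The promoters of these genes share sequence elements that the measurements did not use. In 20 RefSeq promoter windows (GRCm38.p6, 250 bases before to 50 after a start) of 19 of the 22 falling members, CCAAT was present on either strand in 17 (85%) and TTTGAA in 12 (60%), against 37.4% and 17.9% of all 32851 windows. Over all members tested the shares were 82.8% and 55.2% of 29 windows, close to those of the falling members. CCAAT is the box bound by NF-Y, and TTTGAA the core of the cell cycle homology region, a repressor site of mitotic genes. A match is a description of the letters and not a bound site. The windows of Top2a (chr11:99024140-99024439, minus strand) and Cdk1 (chr10:69352863-69353162, minus strand) are printed because they show both elements together; they read 5′ to 3′ along the gene, with the CCAAT box, the TTTGAA core and the reverse complement of each in capitals.
Top2a: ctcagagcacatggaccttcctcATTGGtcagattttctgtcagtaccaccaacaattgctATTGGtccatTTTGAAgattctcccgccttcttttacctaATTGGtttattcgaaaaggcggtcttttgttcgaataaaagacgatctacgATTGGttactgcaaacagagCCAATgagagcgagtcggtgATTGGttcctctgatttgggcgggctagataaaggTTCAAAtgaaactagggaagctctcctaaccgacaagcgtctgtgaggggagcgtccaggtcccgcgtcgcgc
Cdk1: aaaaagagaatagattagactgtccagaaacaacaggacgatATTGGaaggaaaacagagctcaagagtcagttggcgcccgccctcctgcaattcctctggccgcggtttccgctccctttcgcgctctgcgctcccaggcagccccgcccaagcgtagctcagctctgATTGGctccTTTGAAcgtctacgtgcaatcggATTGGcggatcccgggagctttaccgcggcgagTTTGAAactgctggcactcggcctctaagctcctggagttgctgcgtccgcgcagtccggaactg

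Part of the wound matrix genes were lower at day 42. Cthrc1, a secreted protein of activated adventitial fibroblasts, read 1.68, 1.93 and 1.48 at day 7 and -3.31, -3.76 and -4.86 at day 42, with the unoperated arrays at -3.20, -4.50 and -2.98. The groups did not overlap on any pair of arrays, and WT sham aorta read 1.69, 1.42 and 1.61 at day 7 and -2.88, -2.63 and -3.51 at day 42. Cthrc1 fell by 5.68 ± 0.43 (adjusted p = 7.64e-05) and stood at -4.54, adjusted p = 0.000161, with the brightness term; only 1 day 42 array was above background. Of the 19 matricellular and provisional matrix genes, 8 fell and 0 rose (median -0.81). Postn, the periostin of remodelling matrix, was at 6.29, 5.10 and 6.23 and then 4.56, 4.13 and 3.89, and fell by 1.68 ± 0.37 (adjusted p = 0.00888). The fibroblast activation protease Fap fell by 1.63 ± 0.29 and asporin (Aspn), which binds TGF-beta and collagen, fell by 2.05 ± 0.37 (adjusted p = 0.00498 and 0.00547). Thbs2, an anti-angiogenic matrix protein, and the proteoglycan versican (Vcan) changed by -2.06 and -1.95 (adjusted p = 0.00788 and 0.011). Tenascin C (Tnc) did not pass, at 0.12, 0.43 and 0.27 and 0.85, 0.83 and 1.88 (difference 0.91 ± 0.33, adjusted p = 0.056), and its second probe read -0.34. With the brightness term 4 of the list fell, Cthrc1, Fap and Aspn among them. On the 15 uMT arrays alone the term left 1 fall in the list.

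Part of the collagen genes were lower at day 42, 7 of 19 falling and 0 rising (median -0.69). With the brightness term 4 fell, and 1 fell with the term on the 15 uMT arrays alone. Col3a1, the collagen of early scar, read 8.67, 8.87 and 8.76 at day 7, 7.42, 7.02 and 7.52 at day 42 and 7.75, 8.26 and 7.75 before surgery. Both groups were tight and did not overlap. Col3a1 fell by 1.45 ± 0.24 (adjusted p = 0.00392), and by 1.83 with the brightness term (adjusted p = 0.000507). Col1a1, the main collagen of mature scar, was at 7.64, 7.77 and 7.79 and 7.01, 6.40 and 7.24 and fell by 0.85 ± 0.24 (adjusted p = 0.0226). The fibril-associated Col14a1 had the greatest change of the list, -2.26 ± 0.34 (adjusted p = 0.00291), and Col5a1, Col16a1, Col6a2 and Col6a3 changed by -1.03, -1.06, -1.25 and -1.33 (adjusted p between 0.00811 and 0.0169). Other probes of the same gene differed for Col16a1, where 2 of them read 0.40 and -0.92, and for Col6a2 (-0.16). Of the enzymes that finish collagen, 10 of 19 fell and 1 rose. Lox, which crosslinks collagen and elastin, read 1.74, 1.73 and 1.76 and then 0.16, -0.48 and -0.74, and fell by 2.10 ± 0.42 (adjusted p = 0.00704); its relative Loxl2 fell by 1.64 ± 0.24 (adjusted p = 0.00248). The prolyl hydroxylase subunits P4ha1 and P4ha2 changed by -1.40 and -0.97 (adjusted p = 0.00543 and 0.00979). Serpinh1, the collagen chaperone, and Pcolce, which helps to trim the propeptide, changed by -1.05 and -1.14 (adjusted p = 0.0118 and 0.00778). Collagen falls numbered 4 without day 7 replicate 3 and 3 without day 42 replicate 2, and those of the enzyme list 6 without day 42 replicate 2. Calls that a single left-out array ended were those of Col1a1 (4 of 6 arrays, highest adjusted p = 0.102 without day 42 replicate 2), Col5a1 (3 of 6 arrays, highest adjusted p = 0.0786 without day 42 replicate 2), Col16a1 (3 of 6 arrays, highest adjusted p = 0.0609 without day 42 replicate 2), Col6a2 (1 of 6 arrays, highest adjusted p = 0.0695 without day 42 replicate 2) and Serpinh1 (1 of 6 arrays, highest adjusted p = 0.0543 without day 42 replicate 2).

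Microfibril and elastin genes were lower as well. Fibrillin-1 (Fbn1), the backbone of microfibrils, was at 4.18, 4.16 and 4.19 at day 7 and 2.40, 1.37 and 1.77 at day 42. Its day 7 arrays lay close together and all exceeded the unoperated arrays (2.54, 2.60 and 3.49). Fbn1 fell by 2.33 ± 0.29 (adjusted p = 0.00142), Mfap2 fell by 2.39 ± 0.24 (adjusted p = 0.00049) and Mfap5 fell by 1.96 ± 0.22 (adjusted p = 0.000955), the latter 2 being small glycoproteins of the microfibril, and all 3 fell with the brightness term (adjusted p = 0.0177, 0.00094 and 0.00229). Elastin itself (Eln) read 4.56, 5.38 and 5.10 at day 7, 2.80, 2.73 and 3.18 at day 42 and 1.16, 1.22 and 3.76 before surgery. It fell by 2.11 ± 0.70 (adjusted p = 0.0416) but read -0.80, adjusted p = 0.575, with the brightness term. Efemp1, which encodes fibulin-3, was the exception and rose by 0.95 ± 0.24 (adjusted p = 0.0144), with levels of 1.09, 0.77 and 0.19 and 1.87, 1.68 and 1.34. Emilin2 and Mfap4 changed by -1.50 and -1.23 (adjusted p = 0.0307 and 0.031). Of 17 elastic fibre genes 6 fell and 1 rose (with the brightness term 4 and 1). The term on the 15 uMT arrays alone left 3 falls and 0 rises. In the fit without the term, the falls numbered 3 without day 7 replicate 2 and 3 without day 42 replicate 2. The calls least secure against the loss of 1 array were Eln (6 of 6 arrays, highest adjusted p = 0.124 without day 7 replicate 2), Efemp1 (2 of 6 arrays, highest adjusted p = 0.0557 without day 7 replicate 3), Emilin2 (4 of 6 arrays, highest adjusted p = 0.114 without day 42 replicate 3) and Mfap4 (4 of 6 arrays, highest adjusted p = 0.13 without day 42 replicate 2).

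Fibroblast and proteoglycan genes were lower at day 42. Lumican (Lum), a collagen-organising proteoglycan, read 7.85, 7.68 and 7.55 at day 7, 5.72, 3.83 and 4.79 at day 42 and 6.83, 6.60 and 6.35 before surgery. All 3 day 42 arrays were below all unoperated and all day 7 arrays. Lum fell by 2.91 ± 0.37 (adjusted p = 0.00148) and read -2.79, adjusted p = 0.00167, with the brightness term. Decorin (Dcn), which regulates the width of collagen fibrils, was at 9.41, 9.68 and 9.56 and 9.23, 7.60 and 8.76, with replicate 1 of day 42 close to day 7, and fell by 1.02 ± 0.34 (adjusted p = 0.042). Omd, Bgn and Fmod changed by -2.05, -1.07 and -1.71 (adjusted p = 0.0162, 0.0173 and 0.0412), making 6 falls and 0 rises among 9 small leucine-rich proteoglycans. Of 18 fibroblast genes, 10 fell and 0 rose (median -1.21), and 8 fell with the brightness term (median -1.14). Dermatopontin (Dpt) was at 1.33, 1.25 and 1.09 and -0.86, -2.08 and -2.04 and fell by 2.88 ± 0.36 (adjusted p = 0.00143). The surface protein Ly6a, also called Sca-1, fell by 1.86 ± 0.30 (adjusted p = 0.00357). Tcf21, a transcription factor of adventitial fibroblasts, was above background on every day 7 array and no day 42 array, so it was at least 3.19-fold lower (adjusted p = 0.0057). Leaving out 1 array gave fewer proteoglycan falls, 2 without day 7 replicate 1, 2 without day 42 replicate 2 and 3 without day 42 replicate 3, and ended the calls of Dcn (5 of 6 arrays, highest adjusted p = 0.167 without day 42 replicate 2), Omd (3 of 6 arrays, highest adjusted p = 0.0691 without day 42 replicate 2), Bgn (2 of 6 arrays, highest adjusted p = 0.0794 without day 42 replicate 2) and Fmod (5 of 6 arrays, highest adjusted p = 0.181 without day 42 replicate 2).

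The secretory machinery was lower at day 42, with 15 falls and 0 rises among 23 genes (median -0.94), and 7 fell with the brightness term. On the 15 uMT arrays alone the term left 0 falls (median -0.68). Herpud1, part of the machinery that removes misfolded proteins from the endoplasmic reticulum, read 4.49, 4.39 and 4.64 at day 7 and 3.74, 3.10 and 3.26 at day 42, and fell by 1.14 ± 0.21 (adjusted p = 0.00595). The day 7 level was near that of the unoperated arrays (4.61, 4.47 and 4.32), so the day 42 arrays stood below both. Sec23a and Sec24d, coat proteins of the vesicles that carry cargo out of that compartment, changed by -2.20 and -1.49 (adjusted p = 0.00417 and 0.0116). The luminal chaperone partners Dnajc3, Dnajb9 and Manf changed by -1.31, -1.54 and -1.78 (adjusted p = 0.00357, 0.00879 and 0.00745), but a second probe of Dnajb9 read -0.13. Xbp1, the transcription factor of the unfolded protein response, fell by 0.74 ± 0.21 (adjusted p = 0.0224). The falls of the list numbered 9 without day 7 replicate 1, 7 without day 7 replicate 2, 9 without day 7 replicate 3, 5 without day 42 replicate 2 and 8 without day 42 replicate 3, and Sec24d (1 of 6 arrays, highest adjusted p = 0.0518 without day 42 replicate 2) and Xbp1 (4 of 6 arrays, highest adjusted p = 0.0983 without day 42 replicate 2) lost the call when 1 array was left out.

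**Figure D1:**
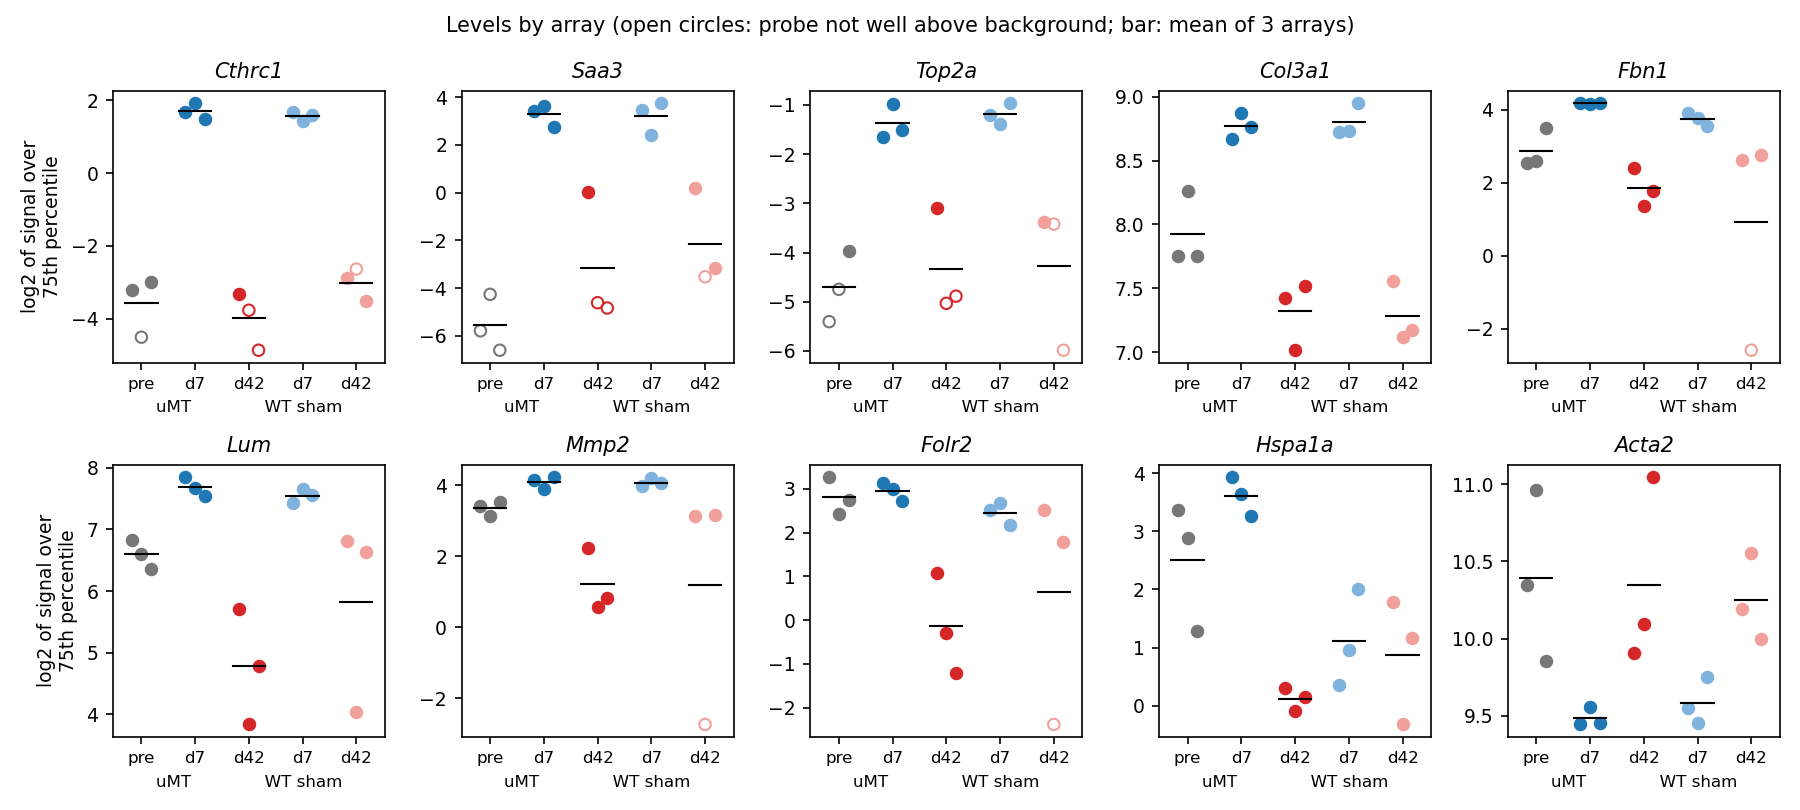
Level of 10 genes (log2 of signal over the array's 75th percentile, each panel with its own scale) on the uMT arrays before surgery (pre) and at day 7 and day 42 after the sham operation, and on the WT sham arrays. Each circle is an array, open where the probe was not well above background, and the bar is the mean of 3. In all 10 panels the uMT day 7 and day 42 arrays do not overlap, with day 42 higher for Acta2 and lower for the other genes. The open WT circles of Fbn1, Mmp2 and Folr2 at day 42 are replicate 2.

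Macrophage genes were lower at day 42, with day 42 replicate 1 the least changed. Of 25 macrophage genes, 12 fell and 0 rose (median -1.37). Folr2, a folate receptor of resident macrophages, read 3.13, 2.99 and 2.73 at day 7, 1.09, -0.29 and -1.21 at day 42 and 3.27, 2.44 and 2.75 before surgery. The day 42 levels were in the order of array brightness, and the groups did not overlap; Folr2 fell by 3.09 ± 0.58 (adjusted p = 0.00595). The mannose receptor Mrc1 (3.68, 3.49 and 3.21, then 2.66, 0.39 and -0.53) fell by 2.62 ± 0.57 (adjusted p = 0.00866). C1qa and C1qb, the complement subunits that macrophages make, changed by -2.62 and -2.25 (adjusted p = 0.00796 and 0.0103). The haemoglobin scavenger receptor Cd163 was not above background at day 42 and was at least 1.21-fold lower (adjusted p = 0.00686), and Ccr2, the receptor of recruited monocytes, fell by 2.31 ± 0.58 (adjusted p = 0.0138), above background on 2 of the 3 day 42 arrays. Lysozyme (Lyz2) and Retnla did not pass, at -1.58 ± 0.89 and -2.10 ± 1.37. With the brightness term 2 macrophage genes fell (median -0.84), and on day 42 replicate 1 alone against day 7 the median was -0.34. The term on the 15 uMT arrays alone left 0 macrophage falls (median -0.45). Among 15 Fc receptor and Syk signalling genes 2 fell, a share below the 15.8% of all genes. Of the 15 differences 14 were below 0 (median -1.32), and 10 had an unadjusted p under 0.05. Over all genes 8971 of 21793 had such a p. With the brightness term the median was -0.64 and 1 fell. The 2 called were the inhibitory receptor Fcgr2b (-1.97 ± 0.56, adjusted p = 0.0236) and the adaptor Lcp2 (adjusted p = 0.0467). Lcp2 was not above background at day 42, and its second probe read -0.39. Syk itself read 1.95, 2.41 and 1.53 and 1.67, 1.0 and 0.56 and did not pass (-0.89 ± 0.44, adjusted p = 0.142). Macrophage falls numbered 6 without day 7 replicate 1, 6 without day 7 replicate 2, 5 without day 42 replicate 2 and 5 without day 42 replicate 3, and Fc receptor and Syk falls 1 without day 7 replicate 1, 0 without day 7 replicate 2, 1 without day 7 replicate 3, 10 without day 42 replicate 1, 0 without day 42 replicate 2 and 0 without day 42 replicate 3. Among the genes named, leaving out 1 array ended the calls of Ccr2 (2 of 6 arrays, highest adjusted p = 0.0667 without day 42 replicate 2), Fcgr2b (4 of 6 arrays, highest adjusted p = 0.1 without day 42 replicate 3) and Lcp2 (5 of 6 arrays, highest adjusted p = 0.176 without day 7 replicate 2).

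Acute phase and neutrophil transcripts included the largest fall of all named genes. Saa3, a serum amyloid A protein of inflamed tissue, was at 3.43, 3.64 and 2.76 at day 7, 0.03, -4.61 and -4.83 at day 42 and -5.79, -4.26 and -6.60 before surgery. The 2 lower day 42 arrays were within the unoperated range and not above background, while replicate 1 stayed between the groups. Saa3 fell by 6.42 ± 1.02 (adjusted p = 0.00354), and the WT sham arrays read 3.44, 2.43 and 3.76 and 0.19, -3.52 and -3.14. Retnlg, a resistin-like protein of neutrophils, and the granule enzyme Mpo were not above background at day 42 and were at least 3.46-fold and 1.18-fold lower (adjusted p = 0.00995 and 0.00962). Il1r2, the decoy receptor of interleukin 1, was at least 1.38-fold lower (adjusted p = 0.0126), and Ly6g fell by 2.48 ± 0.44 (adjusted p = 0.00476). The list counted 6 falls and 1 rise among 14 genes, and 9 of the 14 differences were below 0. The rise was that of the receptor Csf3r (1.39), which is given again below. With the brightness term 3 of the list fell and 0 rose, and with the term on the 15 uMT arrays alone 0 fell. Monocyte-attracting chemokines followed the same arrays: Ccl8 read 4.28, 4.31 and 4.18 at day 7 and 4.46, 1.1 and -0.23 at day 42, so replicate 1 was as high as day 7. Of 20 chemokines 5 fell, namely Ccl8, Ccl7, Ccl12, Ccl11 and Cxcl12 (differences -2.48, -3.06, -1.81, -1.32 and -1.29, adjusted p between 0.0304 and 0.0476). With the brightness term 0 chemokines fell and 1 rose. Ccl7 was above background on 2 of the 3 day 42 arrays, and a second probe of Cxcl12 read 0.04. Ccl2 was at -2.29 ± 0.85 (adjusted p = 0.0606) and Il6 at -0.62 ± 1.20, neither passing. The alarmin Il33 fell by 1.68 ± 0.33 (adjusted p = 0.0064) and Tgfb2 fell by 1.32 ± 0.31 (adjusted p = 0.0118), with a second Tgfb2 probe at -0.58. Chemokine falls numbered 1 without day 7 replicate 1, 0 without day 7 replicate 2, 2 without day 7 replicate 3, 10 without day 42 replicate 1, 0 without day 42 replicate 2 and 0 without day 42 replicate 3. The calls of Il1r2 (1 of 6 arrays, highest adjusted p = 0.0506 without day 7 replicate 1), Ccl8 (5 of 6 arrays, highest adjusted p = 0.198 without day 42 replicate 3), Ccl7 (5 of 6 arrays, highest adjusted p = 0.167 without day 42 replicate 3), Ccl12 (4 of 6 arrays, highest adjusted p = 0.152 without day 42 replicate 2), Ccl11 (4 of 6 arrays, highest adjusted p = 0.128 without day 42 replicate 3), Cxcl12 (4 of 6 arrays, highest adjusted p = 0.141 without day 42 replicate 2) and Tgfb2 (1 of 6 arrays, highest adjusted p = 0.0532 without day 42 replicate 2) ended when an array was left out.

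Protease and complement genes were lower at day 42. Mmp2, the gelatinase of fibroblasts, read 4.15, 3.90 and 4.23 at day 7, 2.24, 0.58 and 0.82 at day 42 and 3.42, 3.13 and 3.51 before surgery. The groups did not overlap. Mmp2 fell by 2.88 ± 0.37 (adjusted p = 0.00148) and stood at -2.13, adjusted p = 0.00251, with the brightness term. Stromelysin (Mmp3) and Mmp23 changed by -2.36 and -1.59 (adjusted p = 0.00781 and 0.00595). The inhibitor Timp1 fell by 2.11 ± 0.43 (adjusted p = 0.00758), and tissue plasminogen activator (Plat) and Adamts12 changed by -1.65 and -1.1 (adjusted p = 0.0116 and 0.00733); Adamts12 was above background on 2 of the 3 day 42 arrays, and its second probe read -0.35. Of 23 proteases and inhibitors 9 fell and 0 rose, and Mmp9 was not tested because its probes were above background on 2 of 3 day 7 arrays and 1 of 3 day 42 arrays. Complement factor B (Cfb) was at 4.40, 4.22 and 4.39 and 2.89, 1.83 and 1.60 and fell by 2.23 ± 0.30 (adjusted p = 0.002). The protease C1s1, the C1 inhibitor Serping1 and properdin (Cfp) changed by -1.93, -1.44 and -1.30 (adjusted p = 0.00417, 0.00785 and 0.011), for 9 falls and 1 rise among 19 complement genes. The rise was Itgam (2.29), read by a probe holding a short repeat of the kind described below. The median of its 2 other probes was -0.82. Without such repeat probes the list had 10 falls and 0 rises. Fitted with the brightness term, 3 proteases and 3 complement genes fell. With the term on the 15 uMT arrays alone, 0 of either list fell. Complement falls numbered 5 without day 42 replicate 2, and leaving out that array ended the calls of Plat (1 of 6 arrays, highest adjusted p = 0.0532 without day 42 replicate 2) and Cfp (1 of 6 arrays, highest adjusted p = 0.0517 without day 42 replicate 2).

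**Figure D2:**
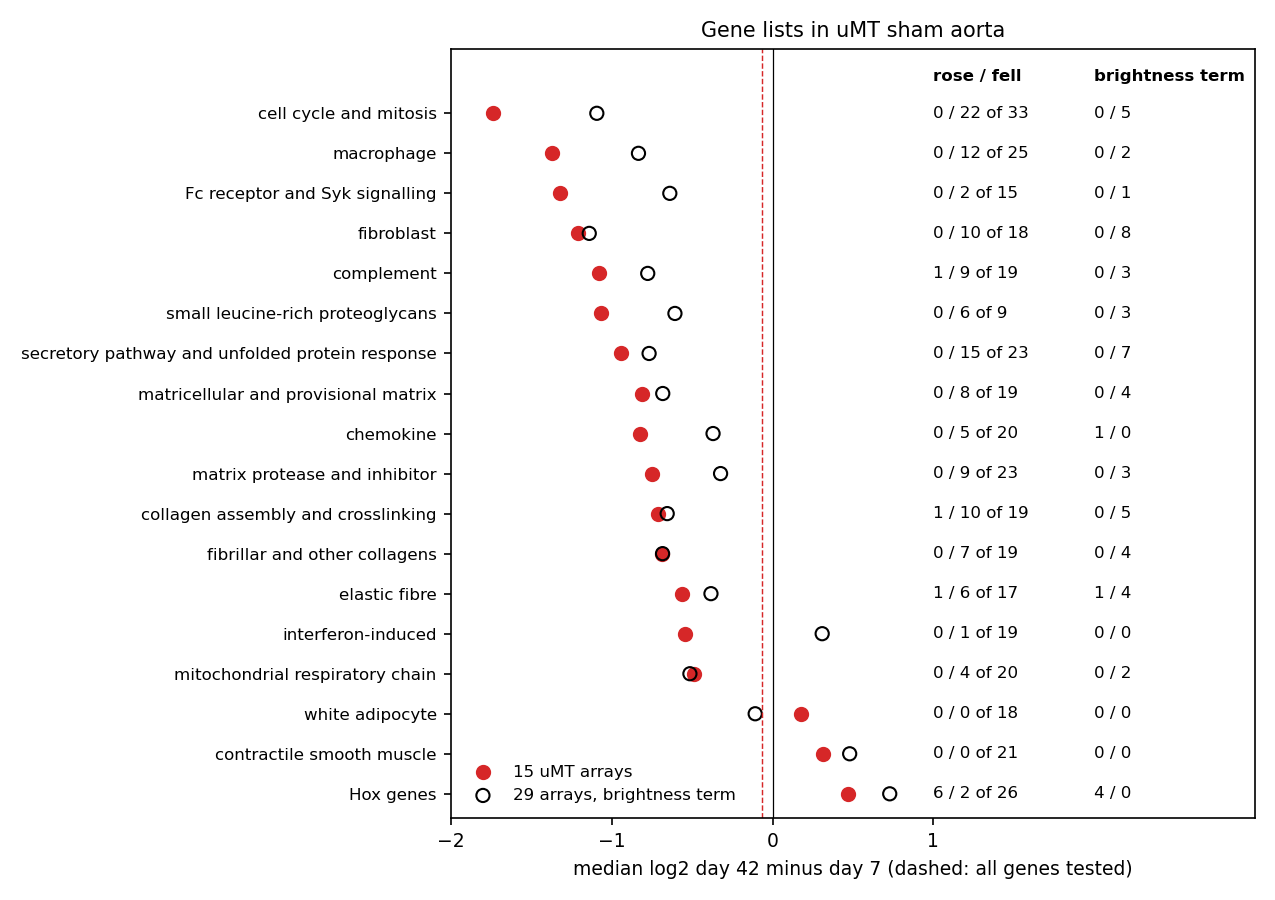
Median log2 difference between day 42 and day 7 for 18 gene lists in the 15-array fit (filled circles) and with the brightness term on 29 arrays (open circles); the dashed line is the median of all genes tested. The columns on the right count members that rose and fell in each fit; the filled circles of the 3 lowest lists lie below -1.3, and the 2 sets of circles differ most for the interferon-induced, macrophage, cell cycle and Fc receptor lists.

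Heat shock genes formed a further falling group, put together by gene symbol after Hspa1a was seen among the largest falls. Hspa1a, the inducible Hsp70, read 3.93, 3.64 and 3.26 at day 7 and 0.30, -0.10 and 0.15 at day 42, with 3.37, 2.89 and 1.28 before surgery. The day 42 arrays lay close together and far below the lowest day 7 array, replicate 1 included, whose brightness was nearest to day 7. Hspa1a fell by 3.49 ± 0.65 (adjusted p = 0.00589) and read -4.05, adjusted p = 0.0147, with the brightness term. With the term on the 15 uMT arrays alone Hspa1a read -4.29 and did not pass (adjusted p = 0.066). Of 25 heat shock proteins tested 13 fell and 0 rose, and 10 fell with the brightness term, where 8.64% of all genes did. On the 15 uMT arrays alone the term left 3 falls, where 0.431% of all genes fell. Among 7 co-chaperones and heat shock factors outside the DnaJ family 4 fell. Of 39 DnaJ genes 8 fell and 3 rose, where 15.8% of all genes fell and 10.9% rose, so the share of DnaJ falls was near the background. The rise of Dnajc5 (1.54) was read by a probe holding a short repeat of the kind described below. The median of its 3 other probes was -0.67. With the brightness term 8 DnaJ genes fell and 0 rose. The nucleotide exchange factor Hsph1 was at 4.85, 5.05 and 5.19 and 2.60, 2.01 and 2.69 and fell by 2.60 ± 0.41 (adjusted p = 0.00352). Dnaja1, which hands substrates to Hsp70, fell by 2.18 ± 0.33 (adjusted p = 0.00291); Chordc1, a partner of Hsp90, fell by 2.04 ± 0.23 (adjusted p = 0.00065). Hsp90aa1, the inducible Hsp90, Stip1, which links Hsp70 to Hsp90, and Hspa4l changed by -1.15, -1.26 and -1.66 (adjusted p = 0.0158, 0.0122 and 0.00266). In WT sham aorta the day 7 levels of Hspa1a were 0.36, 0.96 and 2.02 and the day 42 levels 1.78, -0.32 and 1.17. WT arrays at both times therefore lay below the uMT day 7 arrays. Of the genes named here, those that lost the call without 1 uMT array were Hsp90aa1 (2 of 6 arrays, highest adjusted p = 0.0744 without day 42 replicate 2) and Stip1 (1 of 6 arrays, highest adjusted p = 0.0554 without day 42 replicate 2).

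The heat shock element, the binding sequence of heat shock factor, was looked for on both strands of the promoter windows as 3 alternating GAA and TTC units, each 2 bases apart; matches may overlap. The search took the heat shock proteins and the co-chaperones and factors outside the DnaJ family. The 39 DnaJ genes were left out of it. The element was present in 5 of 16 windows, those of 4 of the 14 falling genes of this set with a window (Hsph1, Chordc1, Hspe1 and Hspd1), against 0.603% of all windows. Of the 29 windows of the 25 members of this set that have one, the fallers included, 5 held it. No window of a member of this set that did not fall held it, and the DnaJ genes are not covered. Hspe1 and Hspd1 are neighbours read in opposite directions and share their match. The windows of Chordc1 (chr9:18292017-18292316, plus strand) and Hspe1 (chr1:55087898-55088197, plus strand), GRCm38.p6 from RefSeq, are printed as the ones with overlapping matches, in capitals.
Chordc1: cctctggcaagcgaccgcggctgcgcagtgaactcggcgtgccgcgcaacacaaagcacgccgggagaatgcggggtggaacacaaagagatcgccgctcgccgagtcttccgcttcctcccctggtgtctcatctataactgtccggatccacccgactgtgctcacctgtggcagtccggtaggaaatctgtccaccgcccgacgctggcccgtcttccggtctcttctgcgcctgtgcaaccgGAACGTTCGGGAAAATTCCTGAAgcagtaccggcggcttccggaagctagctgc
Hspe1: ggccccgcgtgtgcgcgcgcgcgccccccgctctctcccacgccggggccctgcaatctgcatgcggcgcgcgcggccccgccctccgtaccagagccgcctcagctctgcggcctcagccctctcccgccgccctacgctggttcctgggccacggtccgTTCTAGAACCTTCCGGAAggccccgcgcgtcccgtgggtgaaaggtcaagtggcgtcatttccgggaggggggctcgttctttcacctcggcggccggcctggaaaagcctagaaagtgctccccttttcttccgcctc

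**Figure D3:**
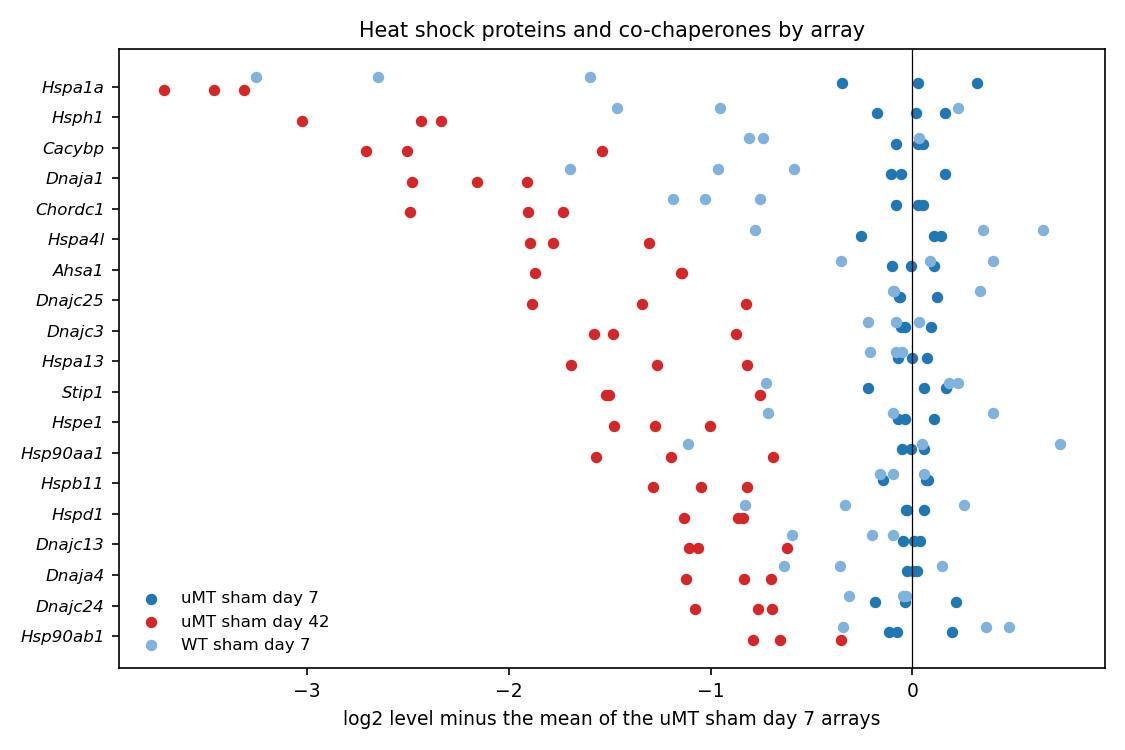
Level of the heat shock proteins and co-chaperones that fell both in the 15-array fit and with the brightness term, per array, as log2 difference from the mean of the 3 uMT sham day 7 arrays. DnaJ genes are included. Red circles are uMT sham day 42, dark blue uMT sham day 7 and light blue WT sham day 7. For each of the genes shown all red circles lie left of all dark blue ones. For Hspa1a, Dnaja1, Chordc1 and Dnajc13 all light blue circles do so too.

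The remaining large falls were of single genes. Spink2, a serine protease inhibitor, was at 1.0, 1.21 and 0.95 and -2.01, -3.77 and -2.98, far below the unoperated arrays too (0.77, 0.44 and 0.35), and fell by 3.97 ± 0.34 (adjusted p = 0.000128), with only 1 day 42 array above background. Pdgfrl, a PDGF receptor-like protein, read 5.50, 5.20 and 5.45 and 2.73, 1.34 and 1.79 and fell by 3.43 ± 0.31 (adjusted p = 0.000165). In the fit with the brightness term they stood at -3.80, adjusted p = 7.74e-05, and -2.91, adjusted p = 0.000382, respectively. Tenomodulin (Tnmd), a membrane protein of tendon and fascia, and the membrane peptidase neprilysin (Mme) were above background on all day 7 arrays and no day 42 array, and were at least 3.39-fold and 2.87-fold lower (adjusted p = 3.81e-06 and 0.000416). Mme was as high before surgery (-1.57, -1.43 and -1.53) as at day 7 (-1.30, -1.83 and -1.59). The imprinted gene Mest, Glt8d2, C1qtnf6 and Tnfaip6, a hyaluronan-binding protein of inflamed tissue, changed by -3.92, -3.66, -3.50 and -3.47 (adjusted p = 0.0092, 0.006, 0.0019 and 0.00827). Of the 3 day 42 arrays, 2 were above background for Mest and 1 for each of the others, so these differences include arrays not well above background.

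Contractile smooth muscle genes gave no call. Of 21 tested with limma, 0 fell and 0 rose (2 had an unadjusted p under 0.05), with a median of 0.31 and single differences from -0.86 to 1.64. Smooth muscle actin (Acta2) read 9.44, 9.55 and 9.45 at day 7 and 9.90, 10.09 and 11.05 at day 42. Although all 3 day 42 arrays were higher, their spread was wide, and the difference of 0.86 ± 0.64 did not pass (adjusted p = 0.319); under quantile scaling it turned to -0.29. Myh11, the smooth muscle myosin, was at 6.43, 5.91 and 6.34 and 7.33, 7.95 and 8.33 (1.64 ± 0.73, adjusted p = 0.109). Tagln and Myl9 differed by 0.96 ± 0.56 and 0.78 ± 0.54, and both turned negative under quantile scaling as well. All 4 were well above background on all 6 arrays. White adipocyte genes, a measure of perivascular fat, had 0 falls and 0 rises among 18 in the same test (2 with an unadjusted p under 0.05); adiponectin (Adipoq) ranged from 0.81 to 4.47 within day 42, and Fabp4 and Cfd differed by 0.22 ± 0.61 and -0.19 ± 1.11. Of 10 brown adipocyte genes 2 rose and 1 fell. Dio2, which activates thyroid hormone, was at 0.09, 0.15 and -0.11 and -1.75, -2.95 and -2.37 and fell by 2.40 ± 0.51 (adjusted p = 0.00811), with 2 of the 3 day 42 arrays above background. Ppargc1a, a regulator of mitochondrial genes, and Cpt1b, which carries fatty acids into mitochondria, changed by 1.39 and 0.87 (adjusted p = 0.0498 and 0.0368) and did not pass with the brightness term. The calls of Ppargc1a (5 of 6 arrays, highest adjusted p = 0.153 without day 42 replicate 3) and Cpt1b (5 of 6 arrays, highest adjusted p = 0.15 without day 42 replicate 2) ended when 1 array was left out. The defining brown fat marker Ucp1 was not above background on any of the 6 arrays.

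B cell transcripts were checked against the genotype. Ms4a1 (CD20) and Jchain, which joins secreted antibody, were not well above background on any of the 6 arrays. Cd79a, part of the B cell receptor, was dim at -2.75, -2.81 and -2.38 and -2.65, -2.01 and -1.93 and did not pass (0.45 ± 0.29). Cd79b, its partner, fell by 2.05 ± 0.59 (adjusted p = 0.0234) with 2 of the 3 day 42 arrays above background, while the probe of Cd22 rose by 2.24 ± 0.44 (adjusted p = 0.00667) from 0.45, 0.28 and 0.67 to 1.94, 3.12 and 3.05. These genes moved in opposite directions, and no value here gives the cells that carried them. The call of Cd79b (2 of 6 arrays, highest adjusted p = 0.0745 without day 7 replicate 1) ended when 1 array was left out.

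The largest rises share a property of their probes, a short repeat. Of the 12 largest rises of named genes, 11 were read by 60-base probes holding the run AGAGAG in either phase, the run ACACAC in either phase or the block GGAAGG, which also marked 89.4% of the 217 genes that rose by more than 3 log2 units, against 9.25% of all probes tested. These motifs were chosen after the values were seen, so the shares are descriptions with no test. Probes with AGAGAGAG numbered 128, of which 105 rose and 1 fell, with a median of 3.58. The complementary runs did not behave alike: probes with CTCTCT or TCTCTC had a median of 0.05 and those with GTGTGT or TGTGTG of -0.24, against -0.07 and -0.06 of the other probes. The printed stretches are 30 bases of the probes, 5′ to 3′ as on the array, with the listed repeats in capitals, for 7 rising features whose gene names are those of the array design.
Syn3: accaaAGAGAGAGAaaagGAGAGAGAGAGA
Tbx22: aaggaaagagaaAGAGAGAGAGAGAGAGAG
Cd300lf: ttttaaggaggaAGAGAGAGAGAGAGAGAG
Gbp6: agaatgaactgtgtaaagGAGAGAGAGAGA
Mapt: gcagtcaataatcatgGAGAGAAGAGAGAG
Shank2: tagactttatttatttagaagGAGAGAGAG
Cat: tacaACACACAtacCACACACACACACACA
On mouse build mm9, the file's coordinates, the whole probes lie at chr10:85586568-85586627 (minus strand), chrX:104881102-104881161 (plus), chr11:114977796-114977855 (minus), chr5:105700056-105700115 (minus), chr11:104189496-104189555 (plus), chr7:151610225-151610284 (plus) and chr2:103294487-103294546 (minus).

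The levels of these probes differed with the array's brightness and with the group. The synapsin Syn3 probe read 1.04, 1.36 and 0.97 at day 7 and 4.34, 7.54 and 6.11 at day 42, and 2.70, 5.10 and 0.59 on the unoperated arrays. The highest unoperated value was that of replicate 2, the dimmest of the 3. The feature named for the transcription factor Tbx22 was at 1.76, 3.29 and 2.66, then 6.00, 7.86 and 7.73, and 4.35, 6.76 and 2.44 before surgery. The median over all AGAGAGAG probes was -0.04 to 0.05 at day 7, 1.80, 4.46 and 3.11 at day 42, and 0.74, 2.42 and -0.14 before surgery, where the 75th percentiles were 174, 90.7 and 312. Within the unoperated group the dimmer array read higher. Day 42 replicate 1 stood above unoperated replicate 1 (75th percentiles 231 and 174), and day 42 replicate 3 above unoperated replicate 2 (95.7 and 90.7). Day 42 replicate 1 read below unoperated replicate 2, a dimmer array (1.80 against 2.42). The part of brightness in these levels was not tested. Within day 42 the dimmest array, replicate 3, was below replicate 2. Their median change with the brightness term was 0.88. Of the 524 rises with such a repeat in the probe, 62 (11.8%) passed with the term, and of the 1841 others 358 (19.4%). With every repeat probe set aside before the genes were tested, 1879 rose (9.26%) and 3254 fell (16%).

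A second probe of the same gene often read otherwise. For Cd300lf, an inhibitory receptor of myeloid cells, the repeat probe rose by 4.44 ± 0.96 (adjusted p = 0.00863), while a probe at chr11:114977533-114977592 without a repeat read -1.64, -1.12 and -1.93 at day 7 and -3.30, -4.95 and -4.75 at day 42, a difference of -2.77. For the interferon-induced GTPase Gbp6 the difference was 4.61 with the repeat probe and -0.80 with the probe at chr5:105702128-105702187. For catalase (Cat), which breaks down hydrogen peroxide, it was 3.36 and, with the probe placed at chr2:103297086-103300428, a span longer than the probe itself, -0.55. The other kept probes of Syn3 and Mapt read 0.92 and 0.95. The first 30 bases of the 3 printed probes hold none of the listed repeats.
Cd300lf: gtggagttgaattgattgtgtactttcaga
Gbp6: ggctctcttaaatggattttctacagttct
Cat: aacagtgctaatgaagacaatgtcactcag
Over 155 rising features with a repeat probe and another kept probe without one, the medians were 2.30 and 0.42. Over 509 rising features without a repeat they were 1.21 and 0.54, and over 807 falling ones -0.95 and -0.63, the second probe falling in 78.4%. Among list members, the cytokine Lif rose by 3.61 ± 0.86 (adjusted p = 0.0117), the transcription factor Sox5 rose by 1.81 ± 0.39 (adjusted p = 0.00849), and the receptors Siglech and Csf3r changed by 1.35 and 1.39 (adjusted p = 0.0112 and 0.00742). None of these 4 passed with the brightness term, and a second probe of Siglech read -1.29.

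**Figure D4:**
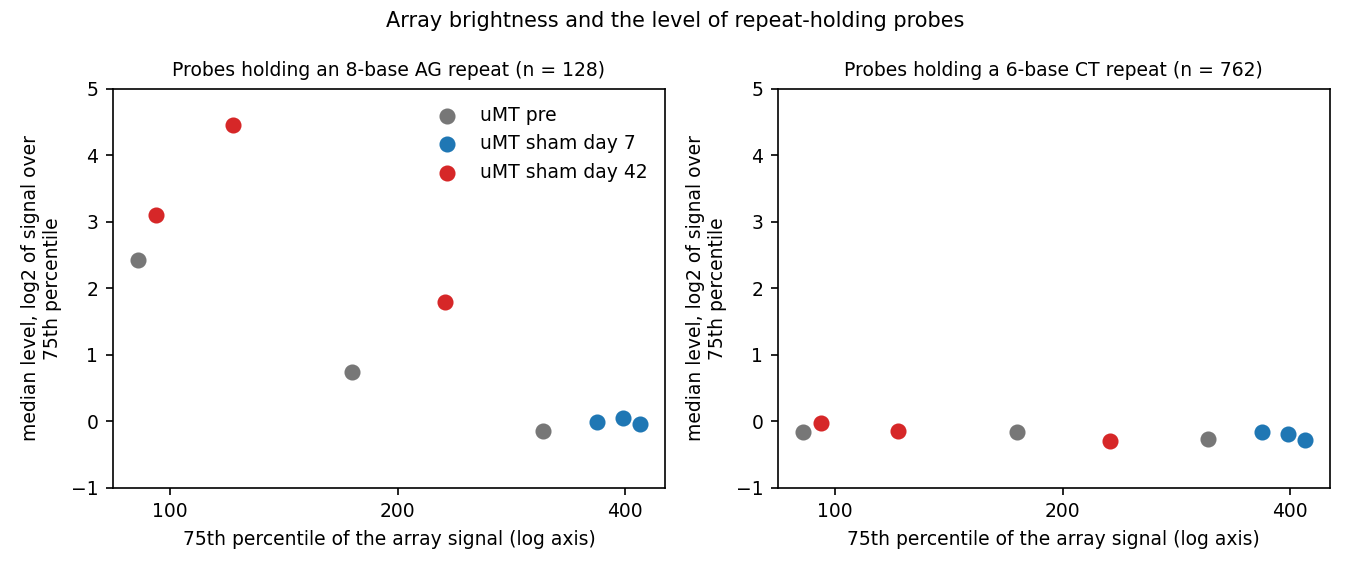
Median level of the probes holding AGAGAGAG (left) and of those holding CTCTCT or TCTCTC (right) on each of the 9 uMT arrays before surgery and after the sham operation, against the array's 75th percentile of signal on a log axis. The left panel runs from near 0 on the 4 brightest arrays to 4.46 on a dim day 42 array, with the day 42 points above the unoperated point of nearest brightness, while the right panel stays between -0.29 and -0.02.

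**Figure D5:**
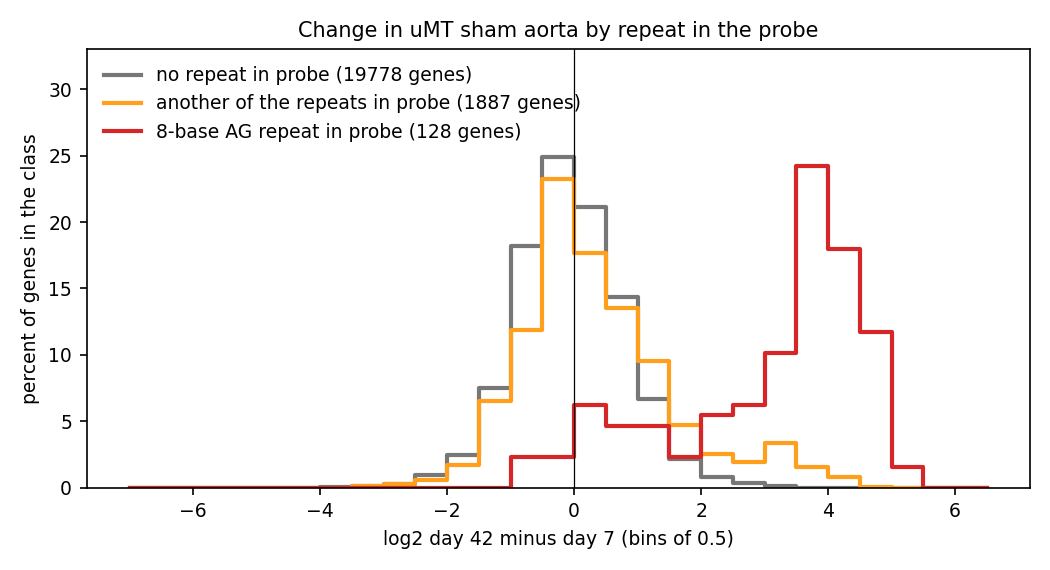
Distribution of the log2 difference between day 42 and day 7 over genes in bins of 0.5, as a percent of each class of probe. Most of the 128 genes read by probes with an 8-base AG repeat lie between 3 and 5, while the 19778 genes without a listed repeat centre just below 0.

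The other named rises were Rnu2-10, a U2 spliceosomal RNA and the only 1 of the 12 without a listed repeat (1.63, 1.53 and 0.70 at day 7, 4.08, 5.12 and 9.41 at day 42, adjusted p = 0.00811), and AU018091, Pabpc1l2b, Rhox3a and Zfhx2, with differences of 5.04, 4.72, 4.68 and 4.55 (adjusted p = 0.0339, 0.00946, 0.00843 and 0.0142). AU018091 was above background on 2 of the 3 day 7 arrays. Calcr was above background on every day 42 and no day 7 array, and was at least 6.21-fold higher (adjusted p = 0.00513). U2 genes are near-identical copies, so the RNA's source is uncertain. Of these 6, Calcr passed with the brightness term (adjusted p = 0.0339), as did Tbx22 (1.34, adjusted p = 0.0445). Among all rises named, leaving out 1 array ended the calls of AU018091 (3 of 6 arrays, highest adjusted p = 0.153 without day 42 replicate 2), Shank2 (1 of 6 arrays, highest adjusted p = 0.0631 without day 42 replicate 2), Zfhx2 (3 of 6 arrays, highest adjusted p = 0.0645 without day 7 replicate 1), Cat (2 of 6 arrays, highest adjusted p = 0.0658 without day 42 replicate 2), Lif (1 of 6 arrays, highest adjusted p = 0.0578 without day 42 replicate 2) and Siglech (1 of 6 arrays, highest adjusted p = 0.053 without day 42 replicate 2).

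Hox genes, which keep the positional identity of the aortic wall, were, of the 43 lists, the one with most rises. Of 26 tested, 6 rose and 2 fell (median 0.47), and 4 rose with the brightness term. The term on the 15 uMT arrays alone left 1 rise. With the repeat probes set aside, and no brightness term, 4 rose. Hoxa3 read 1.04, 1.24 and 1.52 at day 7, 2.55, 3.06 and 2.88 at day 42 and 1.61, 1.91 and 1.84 before surgery. All day 42 arrays exceeded the day 7 and unoperated arrays, and Hoxa3 rose by 1.57 ± 0.26 (adjusted p = 0.00402), or by 1.31, adjusted p = 0.0136, with the brightness term. Hoxc4, at -0.88, -0.78 and -0.49 and 0.57, 0.82 and 0.52, rose by 1.35 ± 0.29 (adjusted p = 0.00845), and with the term by 1.88, adjusted p = 0.00426. Hoxb3, Hoxa6 and Hoxa7 differed by 1.89, 1.76 and 1.12 (adjusted p = 0.00866, 0.00891 and 0.0152), and a second probe of Hoxb3 read 0.22. Hoxd10 was in the falling direction (adjusted p = 0.0186), from dim day 7 levels to none above background at day 42. Among 17 circadian clock genes 3 rose and 2 fell: Bhlhe41, Cry2 and Per3 by 1.93, 0.93 and 1.80, and Nfil3 and Clock by -1.58 and -0.69 (adjusted p = 0.00617, 0.0102, 0.0487, 0.0114 and 0.0356). The core activator Arntl and the output gene Dbp did not pass (-1.57 ± 0.81 and 0.51 ± 0.48); the hour of tissue collection was not given in the sources used here. With 1 array left out, Hox rises numbered 4 to 9, clock rises 2 to 4, and the falls of both lists 0 to 2, with none in either list without day 42 replicate 2. The calls of Hoxa7 (3 of 6 arrays, highest adjusted p = 0.0614 without day 42 replicate 2), Hoxd10 (4 of 6 arrays, highest adjusted p = 0.0798 without day 7 replicate 2), Per3 (5 of 6 arrays, highest adjusted p = 0.152 without day 42 replicate 3), Nfil3 (1 of 6 arrays, highest adjusted p = 0.0517 without day 42 replicate 2) and Clock (5 of 6 arrays, highest adjusted p = 0.135 without day 42 replicate 3) ended without 1 array. CACGTG, the E-box of the clock activators, was in 6 of 19 windows of the clock list (31.6%, 7.15% of all), and the CArG box of SRF in 2 of 18 windows of the smooth muscle list (11.1%, 1.63% of all).

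Whether the course differed without B cells was tested as the difference between the uMT and the WT change. The uMT sham arrays lay on slide 4. WT sham day 7 arrays lay on slide 1. WT sham day 42 replicates 1, 2 and 3 lay on slides 1, 2 and 3, with replicate 2 scanned on another day. No slide held sham arrays of both genotypes, so slide cannot be told apart from genotype, and in WT it partly followed time. With slide as a random block 0 genes passed. The part of slide in the fits without WT sham day 42 replicate 2 was not tested. On all 30 arrays 0 of 22140 genes passed (limma; 1845 had an unadjusted p under 0.05, and the smallest adjusted p was 0.169). WT sham day 42 replicate 2 decided this count; 36.9% of its spots were above background. Without it, 1750 genes passed (7.9%), 1158 with a lower (5.23%) and 592 with a higher (2.67%) change in uMT, and 1024 and 276 with the brightness term. Of 18 fibroblast genes 7 fell more in uMT, where the list's median change was -1.21 against -0.01 in WT. The medians were -1.07 and 0.43 for the proteoglycans (4 of 9 passing), -0.94 and 0.05 for the secretory list (5 of 23), and -1.08 and 0.05 for complement (4 of 19). For the cell cycle list they were -1.84 and -2.01, with 0 of 33 passing. These WT medians rest on 2 day 42 arrays. With all 3 they were -0.61 for the fibroblast genes, -0.26 for the proteoglycans, -0.35 for the secretory list, -0.83 for complement and -1.91 for the cell cycle list. With the brightness term 5 fibroblast, 2 proteoglycan, 3 secretory and 2 complement genes passed with a lower change in uMT. Lum belongs to both the fibroblast and the proteoglycan list, so these lists are not independent.

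Single genes are given as examples and not by rank. Those below that passed without replicate 2 all had a lower change in uMT. The 592 genes that passed with a higher change are not shown. Lumican in WT read 7.43, 7.65 and 7.55 at day 7 and 6.81, 4.04 and 6.63 at day 42, so 2 of the 3 WT arrays stayed above every uMT day 42 array and replicate 2 did not. Without replicate 2 the uMT change was lower by 2.09 ± 0.47 (adjusted p = 0.0306), and on all arrays the difference was -1.20 (adjusted p = 0.692). Neprilysin (Mme) in WT was at -1.83, -1.50 and -2.38 and -1.92, -3.34 and -1.95, a difference between genotypes of -3.38 ± 0.55, adjusted p = 0.0303, without replicate 2. No uMT day 42 array was above background for Mme, so the size of that difference is uncertain. Herpud1 in WT read 4.10, 4.26 and 4.44 and 4.59, 2.34 and 4.57, a difference of -1.45 ± 0.28, adjusted p = 0.0303, again without replicate 2. For Hspa1a it was -3.85 ± 1.02, adjusted p = 0.0351, in the same fit, and on all 30 arrays the adjusted p was 0.374. For Cthrc1 (-0.91 ± 0.72, adjusted p = 0.42), Col3a1 (-0.01 ± 0.31, adjusted p = 0.985) and Cdk1 (0.16 ± 0.62, adjusted p = 0.887) no difference was detectable without replicate 2. The standard errors of Cthrc1 and Cdk1 are too wide to call the changes alike.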

How the data were processed

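Total RNA of mouse aorta was hybridised in 1 colour (Cy3) to Agilent whole-genome arrays. The deposited values are spot intensities with background subtracted (gProcessedSignal, per the file headers), extracted with Agilent Feature Extraction, for which the submitters' processing notes give version 9.5.1.1. Here each intensity was scaled to the array's 75th percentile and taken to log2. Control spots and outlier flags were left out. A probe was kept when well above background on all 3 arrays of at least 1 of the 2 groups, and the brightest kept probe stood for its gene: 30746 probes and 21793 genes, of which 15230 were named through the reference tables and 6124 had several probes. Differences were tested with limma 3.58.1 (R 4.3.3), 5 group means over the 15 uMT arrays with 10 residual degrees of freedom, and Benjamini-Hochberg adjustment at 0.05 over all genes; the comparison with WT used 30 arrays and 22140 genes. The script was tested on simulated data. No count of molecules stands behind an array value, so precision is limited by the number of arrays.

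By the rule, the text names the top 12 rises and the top 12 falls by size that have a symbol, and the called and defining members of the 43 lists (738 genes). The rule also set the largest differences between genotypes to be named among genes that passed. On all 30 arrays 0 did, so the genes shown for that comparison are examples chosen outside that part of the rule. The heat shock genes, and in part the motifs, were chosen after values were seen. The comparison and lists were chosen with earlier results of these data known. Same-numbered samples of the 2 groups deviated from their group means with correlations of 0.19, -0.21 and 0.18, so the numbers were not taken as pairs. The records name both RNeasy and the SV Total RNA Isolation System, and which was used is not settled. Probes were not placed in exons or UTRs, as no annotation of mm9 was used here.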

Additional observations from a re-analysis of the deposited data

How the results depend on the processing

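The count of 5814 calls moved by more than 1.5 times under several alternatives. Among alternatives fixed earlier, it was 2766 with the WT arrays in the fit (1244 rises, 1522 falls), 12633 with no filter on dim probes (9242 and 3391) and 5474 with the replicate block, and from 2073 to 7877 with 1 array left out: 2527, 2649 and 3815 without day 7 replicates 1, 2 and 3, 2073 without day 42 replicate 2 and 2895 without day 42 replicate 3. Scaling over probes above background on all arrays gave 5631 calls but turned the split from 40.7% to 60.3% rises. Among alternatives chosen after the data were seen, the brightness term left 115 calls on 15 arrays and 2458 on 29 (the same 29 arrays without the term gave 8700, 3574 rises and 5126 falls), and leaving out the 2 dimmest day 42 arrays left 29. The difference between genotypes gave 0 calls on 30 arrays and with the replicate block, 0 to 21 with 1 array left out other than WT sham day 42 replicate 2, 1750 without that array, 21 with a common floor, 2136 with both, and 1300 with the brightness term. The cause of these shifts was not tested.

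Of the values under alternatives for named genes that passed, 2623 kept direction and call, 550 lost the call and 5 reversed. The reversals were Ccl8 without the 2 dimmest day 42 arrays (0.20), Gbp6 (-0.80), Cd300lf (-2.15) and Cat (-0.55) without repeat probes, and Cd300lf as the mean of its probes (-0.16); without day 42 replicate 1 these last 3 genes read 5.39, 5.13 and 4.05. Among genes that did not pass, Lyz2 turned to 0.45 and Ccl2 to 0.094 with the brightness term on 15 arrays, and Il6 to 1.67 on 15 and 1.15 on 29 arrays; without the 2 dimmest arrays Lyz2 read 0.57 and Il6 0.19. Under normexp, quantile scaling and the authors' matrix, Tagln read -0.15, -0.13 and -0.14, Myl9 -0.40, -0.32 and -0.32, and Acta2 -0.35, -0.29 and -0.24. Fabp4 turned to -0.46 without day 42 replicate 2 (0.576 without replicate 1), -0.16 with the term on 29 arrays and -0.50 without the 2 dimmest arrays. Cfd read 0.19 without day 7 replicate 1 and from -0.919 to 0.67 with 1 day 42 array left out. Adipoq read 0.061, 0.013 and 0.0073 under normexp, quantile scaling and the matrix, 0.027 under the common-probe percentile, 0.25 without day 7 replicate 1, -1.14 to 0.69 with 1 array left out, and 0.16 with the term on 15 arrays. Cd79a read -0.00076 under normexp.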

Other observations

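Counts here are genes that passed limma's test at day 42 against day 7, where 15.8% of all genes fell and 10.9% rose, and medians are log2 differences over the genes tested. Of 14 dendritic cell and MHC class II genes 3 fell and 2 rose (median -0.99). With the brightness term 0 fell (median -0.29), and 9 fell without day 42 replicate 1 but 0 without any other single array. Of 15 T and NK cell genes 1 fell (median -0.32); the falls numbered 6 without day 42 replicate 1, with 3 rises, and 0 to 1 without another array. Of 9 lymph node and lymphatic genes 4 fell and 0 rose; 1 fell with the brightness term, 6 without day 42 replicate 1 and 2 to 3 without another array. The interferon-induced list had 1 fall of 19 (median -0.55, and 0.31 with the brightness term), and 3 falls without day 42 replicate 1. Endothelial genes counted 2 falls and 1 rise among 19 (median 0.18), or 0 to 1 falls without an array other than day 42 replicate 1.

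Metabolic and signalling lists had shares of falls near or below that of all genes, and most of these counts moved with single arrays. Mitochondrial respiratory chain genes counted 4 falls of 20 (median -0.49), 6 without day 42 replicate 1 and 0 to 2 without another array. Hypoxia and glycolysis genes counted 2 of 18 (median 0.04), and 1 and 0 to 1 in the same way. Wnt inhibitors and targets counted 4 of 19, and 6 and 2 to 3. TGF-beta and BMP response genes counted 3 falls and 1 rise of 19, and 4 and 0 to 2 falls. Of 18 stress and immediate early genes 1 fell and 1 rose.

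Some markers of neighbouring tissues passed the test. Of 14 skeletal muscle genes 2 fell and 0 rose: Casq1, a calcium-binding protein of muscle, and Mybpc2, a myosin-binding protein, were each above background on 1 of the 3 day 42 arrays and read -1.58 and -1.18 (adjusted p = 0.0134 and 0.0103). The call of Casq1 ended without day 42 replicate 2 (adjusted p = 0.0611), and neither passed with the brightness term. Nerve and Schwann cell genes counted 1 fall and 1 rise of 13, and mesothelial genes 1 rise of 3. Markers of pancreas, adrenal cortex and kidney did not pass: the median log2 difference was 0.94 over 3, 0.41 over 4 and 0.48 over 4 genes, with 1, 0 and 0 at an unadjusted p under 0.05. The median over 8 erythroid genes, which did not pass either, was -0.14. Their part in the other results was not tested.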
